A study of Rattus norvegicus with 9 samples.

Results

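In rat primary aortic vascular smooth muscle cells 7 prostanoid receptor genes were followed: Ptger1, Ptger2, Ptger3, Ptger4, Ptgir, Ptgfr and Tbxa2r. They were chosen by gene symbol, and all 7 were found among the 32623 genes of the deposited table. Ptgdr2, another prostanoid receptor, was outside this set and had 1 count in all 9 libraries together. RNA-seq was available for 9 libraries, 3 in each of 3 groups, all from wild-type cells of passages 4 to 8. The cells had been grown in 20% serum and kept 12 h without serum, and were then treated in 2% serum. The PDGF-BB+PTUPB group was given 0.5 µM PTUPB, an inhibitor of both cyclooxygenase-2 and soluble epoxide hydrolase, 2 h before PDGF-BB. The PDGF-BB group was given platelet-derived growth factor BB, a mitogen of smooth muscle, for 24 h, at 10 ng/mL in the sample labels and at 20 ng/mL in the series text. The Control group was given DMSO. No group received PTUPB without PDGF-BB, and the labels leave unstated what separates the 3 libraries of each group (cultures, dishes or animals), so p-values cover only the spread between these libraries.

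Prostanoids are short-lived lipids made from arachidonic acid by cyclooxygenases and terminal synthases, and they act on G protein-coupled receptors of the cell that makes them or of its neighbours. Ptger2 (EP2), Ptger4 (EP4) and Ptgir (the prostacyclin receptor IP) couple to Gs, raise cAMP and relax smooth muscle. Ptger1 (EP1), Ptgfr (the prostaglandin F2 alpha receptor FP) and Tbxa2r (the thromboxane receptor TP) raise intracellular calcium through Gq and, in the case of Tbxa2r, also signal through G12/13. Ptger3 (EP3) couples mainly to Gi and lowers cAMP. In arteries prostacyclin and thromboxane A2 have opposite actions on tone and on platelets.

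Counts summed to 12729187 to 16911050 per library. Smooth muscle markers summed to 2210 to 2470 FPKM in PDGF-BB+PTUPB, 2170 to 2540 FPKM in PDGF-BB and 1740 to 2370 FPKM in Control libraries. In each group 8 of 10 markers had a mean of 1 FPKM or more. Tagln and Acta2 made up most of these sums, while Myh11 had group means of 3.05 to 5.99 FPKM and Myocd and Des stayed below 1 FPKM. The endothelial markers measured never summed to more than 0.79 FPKM in a library, and Cdh5, Kdr, Tie1 and Emcn were at 0 counts. Platelet markers, which matter for the thromboxane receptor, summed to at most 0.33 FPKM, with Pf4 at 0 counts. Ptprc, the pan-leukocyte marker, was also at 0 counts. Of 8 macrophage and leukocyte markers, 3 reached a mean of 1 FPKM over all 9 libraries, with Lyz2 at 0.607 FPKM in PDGF-BB cells. Of 7 adventitial fibroblast markers, 6 reached a mean of 1 FPKM over all 9 libraries, with Col14a1 at 0.98 FPKM in PDGF-BB cells. Of these, Pdgfra, Dcn, Lum and Scara5 had group means of 131 to 671 FPKM. Deviations from the group mean correlated at 0.265 across genes between Control replicate 2 and PDGF-BB replicate 3, the highest value between libraries of different groups. Control replicate 1 and PDGF-BB replicate 2 were close behind at 0.262, and values between groups reached down to −0.285. The Ptger1, Tbxa2r and Ptger4 calls are also given without both libraries of the first pair. Leaving out both libraries of the second pair was not tried. In bulk RNA, fewer cells of a type and less RNA per cell cannot be told apart.

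The receptors spanned a wide range of levels, with Ptgfr far above the others and Ptger2 nearly absent from the counts. FPKM, which divides fragments by exonic length and library size, allows levels of different genes to be compared. Ptgfr was at 44.95, 34.42 and 39.58 FPKM in PDGF-BB+PTUPB replicates 1 to 3, at 41.39, 41.37 and 22.78 FPKM in PDGF-BB replicates 1 to 3, and at 40.19, 38.34 and 42.46 FPKM in Control replicates 1 to 3. It was the most abundant receptor in all 9 libraries, at a mean 6.2 times that of Ptger1 in PDGF-BB+PTUPB, 8.26 times in PDGF-BB and 5.79 times in Control cells. Its mean level was above that of 82.2% of the 11197 tested genes in PDGF-BB+PTUPB, 79.1% in PDGF-BB and 83.1% in Control cells.

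Ptger1 came next, at a mean of 6.40 ± 0.46 FPKM in PDGF-BB+PTUPB, 4.26 ± 0.27 FPKM in PDGF-BB and 6.97 ± 1.42 FPKM in Control cells (SD, n = 3 each). Ptgir followed at 2.65 ± 0.11 FPKM in PDGF-BB+PTUPB, 2.85 ± 0.25 FPKM in PDGF-BB and 2.38 ± 0.37 FPKM in Control cells. Tbxa2r came after Ptgir, at 1.56 ± 0.23 FPKM in PDGF-BB+PTUPB, 1.07 ± 0.050 FPKM in PDGF-BB and 1.68 ± 0.28 FPKM in Control cells. The order of these 4 receptors by mean FPKM was the same in the 3 groups. The libraries of neighbours in this order did not overlap, except Ptgir and Tbxa2r in Control cells, where the lowest Ptgir value (1.96 FPKM) lay just under the highest Tbxa2r value (1.98 FPKM).

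The remaining 3 receptors were near or below the level of reliable measurement. Ptger4 had 13, 10 and 8 counts in PDGF-BB+PTUPB, 8, 9 and 3 counts in PDGF-BB and 12, 23 and 25 counts in Control replicates 1 to 3. Ptger3 had 14, 17 and 7 counts in PDGF-BB+PTUPB, 5, 12 and 17 counts in PDGF-BB and 11, 6 and 15 counts in Control replicates 1 to 3. These values correspond to means between 0.347 and 0.87 FPKM, and Ptger3 and Ptger4 could not be ordered in either PDGF-BB-treated group because their libraries overlapped. Ptger2 had 2 counts in all 9 libraries together, 1 in PDGF-BB+PTUPB replicate 1 and 1 in Control replicate 1. At these depths 3 counts, the limit that a count of 0 allows, correspond to 0.0906 to 0.12 FPKM of Ptger2, so its transcript was not detectable above that level (counting error only).

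**Figure D1:**
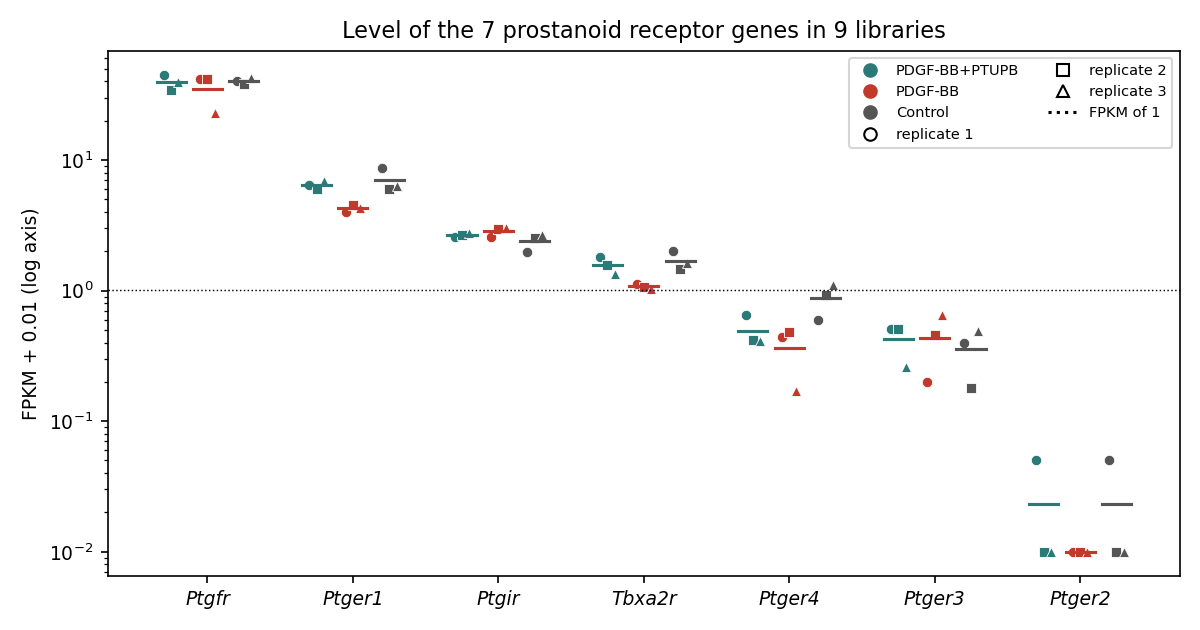
FPKM plus 0.01 on a log axis for each of the 7 receptor genes, with 1 point per library, shapes for the replicate number and a horizontal line at the mean of each group (PDGF-BB+PTUPB, PDGF-BB, Control, n = 3 each). Ptgfr stands between 22.78 and 44.95 FPKM, whereas Ptger4 and Ptger3 lie near or below the dotted line at 1 FPKM and Ptger2 is at or close to 0.

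Summed over the 7 receptors, the calcium-mobilising class (Ptger1, Ptgfr and Tbxa2r) held 92.98 ± 0.74% of receptor FPKM in PDGF-BB+PTUPB, 91.33 ± 2.94% in PDGF-BB and 93.12 ± 1.18% in Control cells (SD, n = 3). The Gs-coupled class (Ptger2, Ptger4 and Ptgir) held 6.20 ± 0.56% in PDGF-BB+PTUPB, 7.58 ± 2.11% in PDGF-BB and 6.23 ± 1.22% in Control cells. Most of the Gs-coupled share was Ptgir. Ptger3 held 0.82 ± 0.31% in PDGF-BB+PTUPB, 1.09 ± 0.83% in PDGF-BB and 0.65 ± 0.28% in Control cells. These shares overlapped between groups, and they were set mostly by Ptgfr, which alone made up 71.5% to 83.3% of the sum in a library. They describe transcripts and not receptor protein.

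PDGF-BB against Control asked which receptors a growth factor stimulus of 24 h altered. Ptger1 and Tbxa2r, both of the calcium-mobilising class, fell with PDGF-BB, whereas Ptgfr of the same class and the prostacyclin receptor Ptgir did not pass the test. Genes entered the test if 3 or more of the 9 libraries reached 1 FPKM, and a gene was called at a Benjamini-Hochberg adjusted p under 0.05 in edgeR's quasi-likelihood test over all 11197 genes. Of the 7 receptors, 4 entered, and of these 2 were called lower and 0 higher (none of the others had an unadjusted p under 0.05, and DESeq2 and limma called 0 higher). Over all tested genes 15.8% were called lower and 17.3% higher (33.2% in either direction).

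Ptger1 had 98, 113 and 106 counts in PDGF-BB replicates 1 to 3, against 230, 196 and 187 counts in Control replicates 1 to 3. In CPM, counts scaled to library size with TMM factors for composition, these were 7.53, 8.40 and 8.00 in PDGF-BB and 17.2, 11.7 and 12.4 in Control libraries. Every PDGF-BB library was below every Control library, and Control replicate 1 was the highest of all. The mean in PDGF-BB cells was 0.58 times that in Control cells, with a log2 fold change of −0.78 ± 0.16 (SE; 95% interval −1.13 to −0.43, adjusted p = 0.00407). With Control replicate 2 and PDGF-BB replicate 3 both left out it was −0.89 (adjusted p = 0.00321). Of all tested genes, 22% showed the same absence of overlap with lower values in PDGF-BB.

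Tbxa2r had 27, 26 and 25 counts in PDGF-BB replicates 1 to 3, against 52, 46 and 47 counts in Control replicates 1 to 3. The PDGF-BB libraries were again all below the Control libraries and lay close together. The mean CPM was 1.96 ± 0.099 in PDGF-BB and 3.24 ± 0.59 in Control cells (SD, n = 3), 0.605 times the Control level, with a log2 fold change of −0.72 ± 0.22 (SE; 95% interval −1.21 to −0.22, adjusted p = 0.0316). This call was close to the threshold. It was lost with DESeq2 (adjusted p = 0.0546), with no filter on low values (0.0585), with only these 2 groups in the fit (0.0634), and without Control replicate 1 (0.109), Control replicate 3 (0.0661) or any PDGF-BB replicate (0.0621, 0.0773 and 0.0746 without replicates 1, 2 and 3). It was kept with Control replicate 2 and PDGF-BB replicate 3 both left out (log2 fold change −0.80, adjusted p = 0.0466).

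Other transcripts moved alongside. Adventitial fibroblast markers summed to 951 to 1350 FPKM in PDGF-BB libraries and to 1440 to 2440 FPKM in Control libraries, and their part in the Ptger1 and Tbxa2r results was not tested. Schwann and nerve markers summed to 12.7 to 18.0 FPKM in PDGF-BB libraries and to 8.03 to 8.91 FPKM in Control libraries, with Ncam1 the only 1 of 5 above 1 FPKM and Sox10 at 0 counts, and their part was not tested either. Myh11, the contractile myosin heavy chain of smooth muscle, was at 3.05 ± 0.53 FPKM in PDGF-BB and 5.99 ± 0.70 FPKM in Control cells (log2 fold change −1.04 ± 0.14 (SE), adjusted p = 0.000326). Acta2, smooth muscle actin, changed by −0.53 ± 0.13 (adjusted p = 0.00898), and Tagln, an actin-binding contractile protein, by 0.28 ± 0.13 without passing the test (adjusted p = 0.127). The strand used in counting is not stated, and no receptor gene overlapped another gene in the deposited annotation.

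The promoters of Ptger1 and Tbxa2r are shown because these were the receptors called lower in that comparison. Each line gives the 250 bases before the RefSeq start site in rat build GRCr8, 5′ to 3′ on the strand of the gene, which is the minus strand for both, with Ptger1 at chr19:41378285-41378534 and Tbxa2r at chr7:9038906-9039155. Capitals mark the Sp1 GC box, the only one of the motifs searched that was found.
Ptger1: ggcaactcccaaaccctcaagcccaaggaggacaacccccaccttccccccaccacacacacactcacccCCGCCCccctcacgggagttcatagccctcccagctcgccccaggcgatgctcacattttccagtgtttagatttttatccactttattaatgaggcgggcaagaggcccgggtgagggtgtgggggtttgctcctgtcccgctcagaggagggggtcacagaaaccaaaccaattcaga
Tbxa2r: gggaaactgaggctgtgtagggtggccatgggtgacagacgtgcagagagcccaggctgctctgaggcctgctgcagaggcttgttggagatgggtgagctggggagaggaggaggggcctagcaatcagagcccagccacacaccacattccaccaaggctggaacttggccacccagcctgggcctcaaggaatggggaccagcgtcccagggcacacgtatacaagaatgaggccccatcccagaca
Searched on both strands were the core of the cAMP response element (TGACG), the AP-1 site (TGANTCA, which shares its first bases with that core), the Sp1 GC box (GGGCGG), the TATA box (TATAAA), the E-box (CACGTG), the GATA site (AGATAA) and the CArG box of serum response factor. Ptger1 held 1 GC box, on the opposite strand, starting at position −180 relative to the start site, and Tbxa2r held no match. Among 33469 RefSeq promoter windows of this length 30.5% held a GC box, 18.2% a cAMP response element core, 12.9% a TATA box, 10.3% a GATA site, 6.34% an AP-1 site, 5.59% an E-box and 1.5% a CArG box. A match is a string of letters and not a shown binding site.

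Ptger4, the EP4 receptor, missed the FPKM filter and was tested after a filter on counts instead (edgeR's filterByExpr, 12107 genes). Its CPM was 0.615, 0.669 and 0.226 in PDGF-BB replicates 1 to 3, against 0.896, 1.37 and 1.66 in Control replicates 1 to 3. The groups did not overlap, as for 21.8% of all genes tested in this direction, with PDGF-BB replicate 3 at only 3 counts. In this fit Ptger4 was called lower, with a log2 fold change of −1.36 ± 0.43 (SE; 95% interval −2.32 to −0.40, adjusted p = 0.0354). Ptger4 passed the count filter through the group where it was high: all 3 Control libraries reached the minimum of 0.723 CPM (before TMM scaling), against 1 PDGF-BB+PTUPB library and 0 PDGF-BB libraries. The call is therefore no support for a lower level of the receptors as a group. With this filter 14.9% of all genes tested were called lower. The Ptger4 call held in 7 of 16 alternatives and was lost, among others, with DESeq2 (adjusted p = 0.0553), with no filter (0.0547), with only these 2 groups in the fit (0.0647), with Control replicate 2 and PDGF-BB replicate 3 both left out (0.139), and without Control replicate 2 (0.0719), Control replicate 3 (0.115), PDGF-BB replicate 1 (0.0662) or PDGF-BB replicate 3 (0.0995).

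Ptgfr, the FP receptor, was at 102.73 ± 30.9 CPM in PDGF-BB and 123.8 ± 7.51 CPM in Control cells (SD, n = 3), with a log2 fold change of −0.27 ± 0.19 (SE; 95% interval −0.70 to 0.16, adjusted p = 0.314). The difference of the means rested on 1 library. PDGF-BB replicate 3 had 67.1 CPM, against 121.55 and 119.59 CPM in replicates 1 and 2, a log2 difference of −0.84 that 4.69% of tested genes matched or exceeded downwards in the same library. Without that library the log2 fold change was −0.04 (adjusted p = 0.817). Ptgfrn, which encodes a membrane protein that binds the FP receptor and was chosen after its values were seen, was at 149.34 ± 1.15 FPKM in PDGF-BB and 127.81 ± 6.14 FPKM in Control cells (log2 fold change 0.15 ± 0.08, adjusted p = 0.164).

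Ptgir, the prostacyclin receptor, was at 8.61, 9.81 and 10.2 CPM in PDGF-BB replicates 1 to 3, against 7.02, 8.74 and 9.41 CPM in Control replicates 1 to 3. The groups overlapped, and the log2 fold change was 0.18 ± 0.14 (SE; 95% interval −0.13 to 0.50, adjusted p = 0.348). Ptger3, under the count filter, had a log2 fold change of 0.26 ± 0.52 (95% interval −0.89 to 1.41, adjusted p = 0.732). Its interval spans changes in both directions of more than 1.5-fold, so at this depth a change of that size was not detectable.

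**Figure D2:**
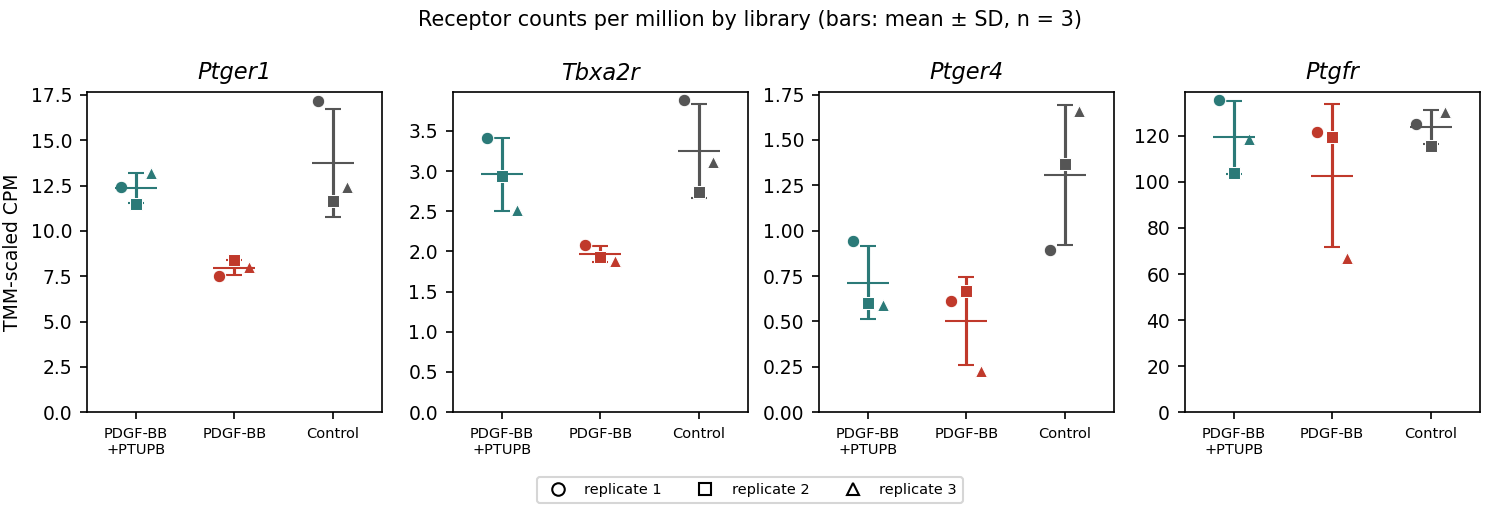
TMM-scaled CPM of Ptger1, Tbxa2r, Ptger4 and Ptgfr in each library (shapes give the replicate number) with the mean and SD of each group (n = 3). The 3 PDGF-BB libraries lie below all others for Ptger1 and Tbxa2r, and 1 PDGF-BB library, replicate 3, stands apart for Ptgfr.

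PDGF-BB+PTUPB against PDGF-BB asked what PTUPB pretreatment changed in growth factor-treated cells. Ptger1 rose with PTUPB, and no other receptor passed the test. Of the 4 receptors that entered the test 1 was called higher and 0 lower, while 8.28% of all tested genes were called higher and 10% lower (18.3% in either direction). The PDGF-BB libraries are shared with the comparison against Control, so the 2 sets of values are not independent.

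Ptger1 had 171, 191 and 178 counts in PDGF-BB+PTUPB replicates 1 to 3, against 98, 113 and 106 counts in PDGF-BB replicates 1 to 3. The CPM were 12.4, 11.5 and 13.2 in PDGF-BB+PTUPB and 7.53, 8.40 and 8.00 in PDGF-BB libraries, without overlap, a pattern that 20% of all tested genes showed in this direction. The mean in PDGF-BB+PTUPB cells was 1.55 times that in PDGF-BB cells, with a log2 fold change of 0.63 ± 0.16 (SE; 95% interval 0.28 to 0.98, adjusted p = 0.0216). With Control replicate 2 and PDGF-BB replicate 3 both left out it was also 0.63 (adjusted p = 0.0195). The call held in 16 of 19 alternatives and was lost when PDGF-BB replicate 1 (adjusted p = 0.0711) was left out, and likewise for replicates 1 (0.0712) and 3 (0.0732) of PDGF-BB+PTUPB.

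Tbxa2r had 47, 49 and 34 counts in PDGF-BB+PTUPB replicates 1 to 3, against 27, 26 and 25 counts in PDGF-BB replicates 1 to 3. All PDGF-BB+PTUPB libraries were above all PDGF-BB libraries. The log2 fold change was 0.59 ± 0.22 (SE; 95% interval 0.09 to 1.09), which did not pass the adjustment over all genes (unadjusted p = 0.0248, adjusted p = 0.0969), and the adjusted p lay between 0.083 and 0.271 in the 19 alternatives. Adventitial fibroblast markers summed to 1510 to 1750 FPKM in PDGF-BB+PTUPB libraries, against 951 to 1350 FPKM in PDGF-BB libraries. Macrophage and leukocyte markers summed to 23.2 to 24.0 FPKM in PDGF-BB+PTUPB and 17.2 to 19.0 FPKM in PDGF-BB libraries, and Schwann and nerve markers to 8.33 to 12.0 FPKM in PDGF-BB+PTUPB and 12.7 to 18.0 FPKM in PDGF-BB libraries. Cd14 alone was at a mean of 18.5 FPKM in PDGF-BB+PTUPB and 13.8 FPKM in PDGF-BB cells. Ncam1 was at 9.19 FPKM in PDGF-BB+PTUPB and 14.0 FPKM in PDGF-BB cells, so the leukocyte and nerve sums rested mostly on these genes. The part of any of these markers in the Ptger1 and Tbxa2r values was not tested. Myh11 rose with PTUPB by 0.54 ± 0.14 (SE; adjusted p = 0.0210), and Acta2, at 0.28 ± 0.13, was not called (adjusted p = 0.158).

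The remaining receptors gave estimates near 0 or with wide intervals. Ptgfr had a log2 fold change of 0.22 ± 0.19 (SE; 95% interval −0.22 to 0.65, adjusted p = 0.483), which became −0.01 without PDGF-BB replicate 3. Ptgir had −0.06 ± 0.14 (95% interval −0.37 to 0.26, adjusted p = 0.822). Under the count filter Ptger4 had a log2 fold change of 0.48 ± 0.46 (95% interval −0.55 to 1.51, adjusted p = 0.522), and its 13, 10 and 8 counts in PDGF-BB+PTUPB overlapped with 8, 9 and 3 counts in PDGF-BB libraries. Ptger3 had equal mean CPM to within its error (0.852 ± 0.29 in PDGF-BB+PTUPB and 0.853 ± 0.45 in PDGF-BB cells).

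**Figure D3:**
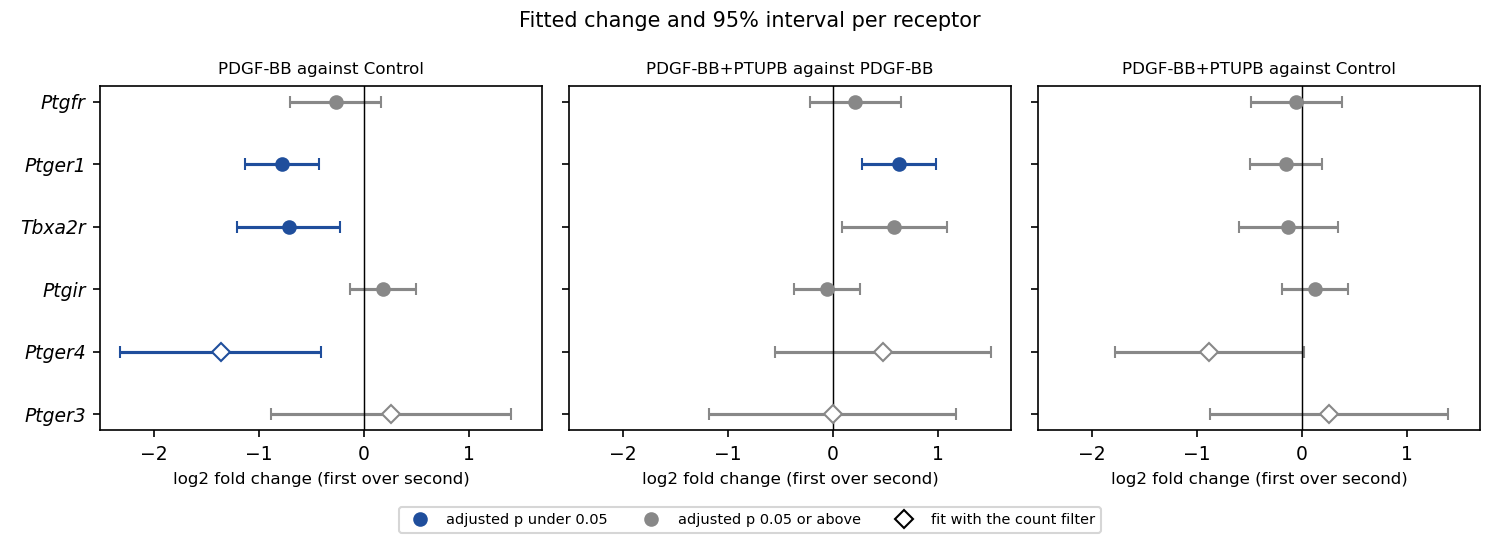
Log2 fold change with its 95% interval for 6 receptors in the 3 comparisons, as the first-named group over the second; filled circles come from the fit with the FPKM filter and open diamonds from the fit with the count filter, and blue marks an adjusted p under 0.05. Ptger1 is at −0.78 with PDGF-BB and at 0.63 with PTUPB added, and no receptor is blue in PDGF-BB+PTUPB against Control.

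PDGF-BB+PTUPB against Control asked what remained different from cells given only DMSO. No receptor was called by edgeR, DESeq2 or limma, and 0 of the 4 tested receptors had an unadjusted p under 0.05, while 2.21% of all tested genes were called. The log2 fold change of Ptger1 was −0.15 ± 0.15 (SE; 95% interval −0.49 to 0.19) and that of Tbxa2r −0.13 ± 0.21 (95% interval −0.60 to 0.35). Ptgfr differed by −0.05 ± 0.19 (95% interval −0.48 to 0.38) and Ptgir by 0.13 ± 0.14 (95% interval −0.19 to 0.44). For these 4 genes the groups overlapped. Ptger4 had the widest gap to Control, at −0.88 ± 0.41 (95% interval −1.78 to 0.02, unadjusted p = 0.0544, adjusted p = 0.381), and Ptger3 was at 0.26 ± 0.51 (95% interval −0.87 to 1.39). The intervals leave room for differences of some size in either direction, so the receptors are not shown to be at Control level.

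**Figure D4:**
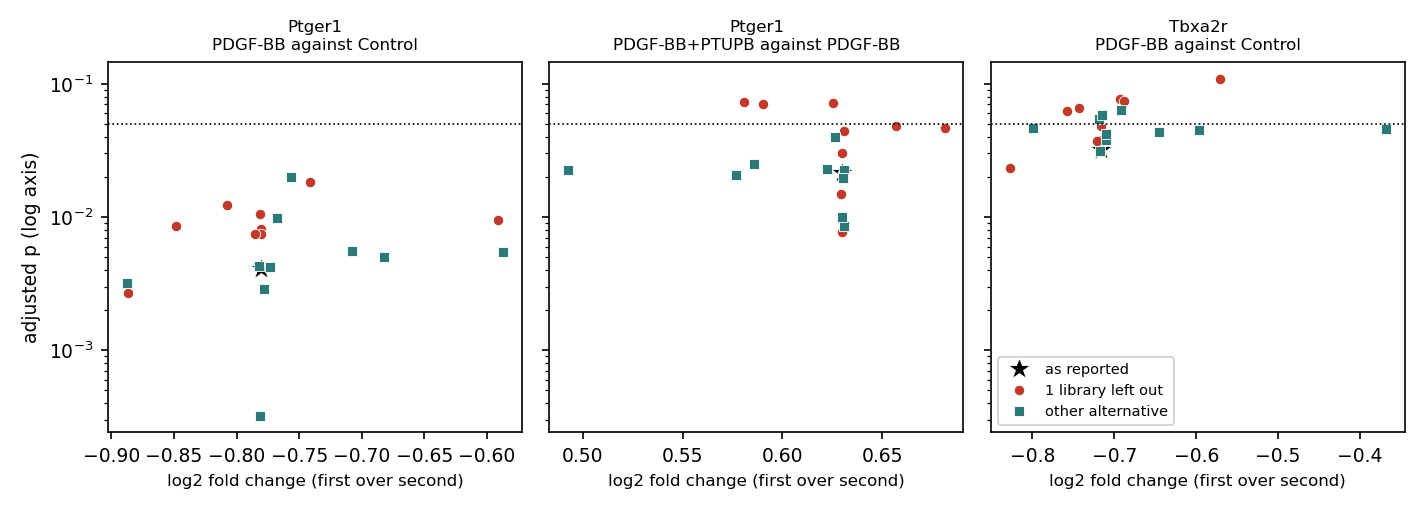
Log2 fold change (horizontal) and adjusted p (vertical, log axis) of Ptger1 and Tbxa2r as reported (star), with 1 library left out (circles) and under the other alternatives (squares); the dotted line is 0.05. Ptger1 stays below the line in all 19 alternatives in PDGF-BB against Control, crosses it in 3 with PTUPB added, and Tbxa2r crosses it in 8.

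The genes around the receptors were taken from 9 lists covering ligand supply, G proteins and signalling downstream, with 91 tested genes in all, 4 of them in 2 lists. In PDGF-BB against Control 14 of these were called higher and 25 lower, where 17.3% of all tested genes were called higher and 15.8% lower. In PDGF-BB+PTUPB against PDGF-BB 12 were called higher and 5 lower, where 18.3% of all tested genes were called in either direction. In PDGF-BB+PTUPB against Control 0 were called by edgeR, against 2.21% of all tested genes, with 22 at an unadjusted p under 0.05. For that last comparison DESeq2 called 1 higher and 3 lower, and limma called 0.

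Of 8 tested prostanoid synthesis genes 3 were called higher and 1 lower with PDGF-BB, where 33.2% of all tested genes were called (median log2 fold change 0.19, against −0.02 for all tested genes). Akr1b1, an aldose reductase that also makes prostaglandin F2 alpha, was at 269 ± 34.1 CPM in PDGF-BB and 189 ± 11.4 CPM in Control cells (adjusted p = 0.00289). Ptgs1, the constitutive cyclooxygenase, was at 538 ± 36.7 CPM in PDGF-BB and 438 ± 35.9 CPM in Control cells (adjusted p = 0.0368). Ptges, an inducible prostaglandin E synthase, was at 11.4 ± 0.98 CPM in PDGF-BB and 21.9 ± 6.21 CPM in Control cells (adjusted p = 0.00411). The count of calls dropped to 1 higher and 1 lower without Control replicate 1, PDGF-BB replicate 1 or PDGF-BB+PTUPB replicate 2.

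Of 4 tested genes of prostanoid transport and inactivation, 1 was called higher and 2 lower with PDGF-BB (median −0.35), where 33.2% of all tested genes were called. Ptgr1, a prostaglandin reductase, was at 124 ± 16.4 CPM in PDGF-BB and 51.2 ± 12.6 CPM in Control cells, a log2 fold change of 1.27 ± 0.17 (SE; adjusted p = 0.000402). The prostaglandin exporter Abcc4 had a log2 fold change of −0.58 ± 0.09 (adjusted p = 0.00107), and the uptake carrier Slco2a1 one of −0.83 ± 0.22 (adjusted p = 0.0163). With PTUPB added Ptgr1 fell to 75.1 ± 7.28 CPM, against 124 ± 16.4 CPM with PDGF-BB alone (adjusted p = 0.0165), the only call on this list, where 18.3% of all tested genes were called. Without PDGF-BB+PTUPB replicate 1 none was called, and without Control replicate 2 there were 1 higher and 1 lower call.

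Ptgs2, the cyclooxygenase-2 that PTUPB inhibits, fell with PTUPB, at 16.6 ± 0.89 CPM in PDGF-BB+PTUPB and 30.7 ± 8.10 CPM in PDGF-BB cells (log2 fold change −0.89 ± 0.27 (SE), adjusted p = 0.0470), the only call among the 8 synthesis genes in that comparison (12.5%, against 18.3% of all tested genes). That call was close to the threshold, and no synthesis gene was called without Control replicate 3, PDGF-BB replicate 1 or any 1 of the 3 PDGF-BB+PTUPB replicates. Between PDGF-BB and Control cells Ptgs2 was not called (log2 fold change 0.23 ± 0.27, adjusted p = 0.538). Ephx2, the soluble epoxide hydrolase, was not called with PTUPB (0.13 ± 0.17, adjusted p = 0.637) or with PDGF-BB (0.05 ± 0.17, adjusted p = 0.859).

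Of 10 tested G protein alpha subunits, the transducers next to the receptors, 1 was called higher and 1 lower with PDGF-BB (median −0.09), 20.0%, against 33.2% of all tested genes. Gna14, an alpha subunit of the Gq family, was at 6.60 ± 1.43 CPM in PDGF-BB and 13.02 ± 1.98 CPM in Control cells (log2 fold change −0.98 ± 0.21 (SE), adjusted p = 0.00522). It was also the only subunit called with PTUPB, where 18.3% of all tested genes were called, at 11.1 ± 2.37 CPM in PDGF-BB+PTUPB and 6.60 ± 1.43 CPM in PDGF-BB cells (log2 fold change 0.75 ± 0.21, adjusted p = 0.0326). Gnai2, a Gi subunit, was higher with PDGF-BB by 0.30 ± 0.08 (adjusted p = 0.0122). The list had 3 lower calls without Control replicate 2. With PTUPB it had 1 higher and 1 lower call without Control replicate 1, and none without Control replicate 3, PDGF-BB replicate 2 or 3, or PDGF-BB+PTUPB replicate 1 or 3.

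On the cAMP side 1 of 5 adenylyl cyclases was called higher and 1 lower with PDGF-BB, 40.0%, near the 33.2% of all tested genes. Adcy3 rose by 0.45 ± 0.12 (SE; adjusted p = 0.0130) and Adcy5 fell by 0.60 ± 0.09 on the log2 scale (adjusted p = 0.000781). Of 16 cAMP effectors 1 was called higher and 3 lower, 25.0%, against the same 33.2%. Prkaca, a catalytic subunit of protein kinase A, was at 86.6 ± 3.00 CPM in PDGF-BB and 66.2 ± 2.88 CPM in Control cells (adjusted p = 0.00267), and its counterpart Prkacb was at 16.1 ± 3.49 CPM in PDGF-BB and 27.5 ± 3.73 CPM in Control cells (adjusted p = 0.00451). Of 10 cAMP phosphodiesterases, which degrade cAMP, 1 was called higher and 3 lower (median −0.14), 40.0%, again near the share of all tested genes. Pde3a had the lowest ratio of these, at 2.06 ± 0.72 CPM in PDGF-BB and 8.70 ± 3.27 CPM in Control cells (log2 fold change −2.07 ± 0.35, adjusted p = 0.00161). The phosphodiesterase calls dropped to 2, both lower, without Control replicate 1 or 3 or PDGF-BB replicate 1 or 2.

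With PTUPB added Adcy5 rose by 0.35 ± 0.09 (SE; adjusted p = 0.0245), Pde4b by 0.50 ± 0.13 (adjusted p = 0.0243), and Prkaca fell by 0.26 ± 0.07 on the log2 scale (adjusted p = 0.0333). Each was the only call on its list in that comparison, where 18.3% of all tested genes were called. No cyclase was called without PDGF-BB replicate 1 or 2 or PDGF-BB+PTUPB replicate 1 or 2, no effector without Control replicate 3, PDGF-BB replicate 1 or any 1 PDGF-BB+PTUPB replicate, and no phosphodiesterase without PDGF-BB replicate 1 or PDGF-BB+PTUPB replicate 1 or 2. Without Control replicate 2 each of these lists had 2 calls, and without PDGF-BB replicate 3 the phosphodiesterases had 3.

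Downstream of Gq and G12/13, 1 of 16 tested effectors was called higher and 4 lower with PDGF-BB (median −0.31), 31.2%, near the 33.2% of all tested genes. Itpr2, an inositol trisphosphate receptor of the endoplasmic reticulum, was at 9.83 ± 2.24 CPM in PDGF-BB and 26.9 ± 6.35 CPM in Control cells (log2 fold change −1.45 ± 0.21 (SE), adjusted p = 0.000569). Arhgef11, a guanine nucleotide exchange factor that acts downstream of G12/13, changed by −0.49 ± 0.10 (adjusted p = 0.0055), and Kalrn, another exchange factor, by −0.68 ± 0.15 (adjusted p = 0.00659). Without Control replicate 2 the lower calls numbered 7.

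With PTUPB added 2 of these 16 effectors were called higher and 1 lower, 18.8%, near the 18.3% of all tested genes. Itpr2 was at 18.5 ± 2.59 CPM in PDGF-BB+PTUPB and 9.83 ± 2.24 CPM in PDGF-BB cells (log2 fold change 0.91 ± 0.21, adjusted p = 0.0148), and Arhgef11 at 77.3 ± 3.59 CPM in PDGF-BB+PTUPB and 56.7 ± 5.37 CPM in PDGF-BB cells (adjusted p = 0.0161). Prkca, protein kinase C alpha, was at 17.2 ± 0.64 CPM in PDGF-BB+PTUPB and 25.6 ± 2.57 CPM in PDGF-BB cells (adjusted p = 0.00727). Without PDGF-BB+PTUPB replicate 1 a single effector was called.

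Of 11 receptor kinases, arrestins and RGS proteins, which switch receptor signalling off, 5 were called higher and 1 lower with PDGF-BB (median 0.20), 54.5%, against 33.2% of all tested genes. Grk6, a receptor kinase, was at 54.9 ± 4.82 CPM in PDGF-BB and 39.3 ± 3.35 CPM in Control cells (adjusted p = 0.00364), and Rgs16, which shortens Gi and Gq signals, at 8.06 ± 1.64 CPM in PDGF-BB and 3.72 ± 1.00 CPM in Control cells (adjusted p = 0.0155). Grk5 was lower, at 114 ± 6.93 CPM in PDGF-BB and 172 ± 24.3 CPM in Control cells (adjusted p = 0.00246). Only 2 higher calls and 1 lower call were left without any 1 of Control replicates 1 and 3, PDGF-BB replicates 1 and 3 and the 3 PDGF-BB+PTUPB replicates. With PTUPB added Grk6 fell by 0.45 ± 0.10 on the log2 scale (adjusted p = 0.0101) and Grk5 rose by 0.40 ± 0.11 (adjusted p = 0.0293), the 2 calls on this list (18.2%, near the 18.3% of all tested genes). It had 1 call without any 1 of PDGF-BB replicates 1 and 3 and PDGF-BB+PTUPB replicates 1 and 3, and 4 without Control replicate 2.

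Genes known to respond to cAMP, the second messenger of the Gs-coupled receptors, were lower with PDGF-BB in 10 of 15 tested cases and higher in 0. Their median log2 fold change was −0.60, against −0.02 for all tested genes, and 66.7% were called, against 33.2% of all tested genes. Dusp1, a MAP kinase phosphatase, was at 88.1 ± 7.21 CPM in PDGF-BB and 198 ± 6.02 CPM in Control cells (log2 fold change −1.17 ± 0.14 (SE), adjusted p = 0.000188). Vegfa, an angiogenic growth factor, was at 290 ± 14.7 CPM in PDGF-BB and 434 ± 12.0 CPM in Control cells (adjusted p = 0.000214), and Id3, an inhibitor of differentiation factors, at 198 ± 12.6 CPM in PDGF-BB and 343 ± 43.3 CPM in Control cells (adjusted p = 0.000217). Per1 (log2 fold change 0.17) and Pde4d (0.13) went the other way without being called. The number called lower was 7 to 11 in the 19 alternatives, and the number called higher was 0 to 1. Many of these genes also respond to growth factors and serum, and no cAMP was measured.

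With PTUPB added 7 of the 15 were called higher and 0 lower, with a median log2 fold change of 0.50, against 0.01 for all tested genes, and 46.7% were called, against 18.3% of all tested genes. Dusp1 was at 157 ± 35.6 CPM in PDGF-BB+PTUPB and 88.1 ± 7.21 CPM in PDGF-BB cells (log2 fold change 0.83 ± 0.14 (SE), adjusted p = 0.00362). Vegfa was at 429 ± 19.6 CPM in PDGF-BB+PTUPB and 290 ± 14.7 CPM in PDGF-BB cells (adjusted p = 0.00112), and Id3 at 290 ± 12.1 CPM in PDGF-BB+PTUPB and 198 ± 12.6 CPM in PDGF-BB cells (adjusted p = 0.00459). Nr4a1 (log2 fold change −0.05), Nr4a3 (−0.47), Per1 (−0.19) and Pde4d (−0.20) went the other way without being called. The number called higher was 5 to 9 in the 19 alternatives, and the number called lower was 0 to 1. Of the Gs-coupled receptors, Ptgir was not called in either comparison. Ptger4 was called lower in PDGF-BB against Control in the fit with the count filter, which it passed through the Control libraries. That call held in 7 of 16 alternatives. A link between the receptors and the cAMP-responsive genes was not tested.

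**Figure D5:**
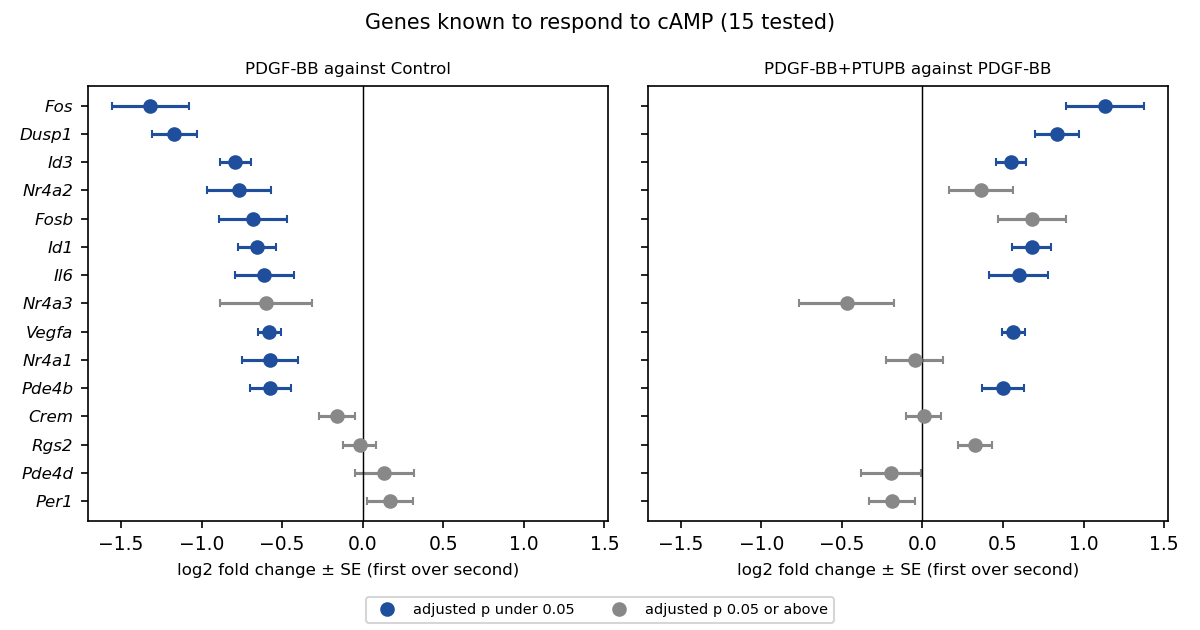
Log2 fold change ± SE of the 15 tested genes known to respond to cAMP, for PDGF-BB against Control and PDGF-BB+PTUPB against PDGF-BB, with blue for an adjusted p under 0.05. With PDGF-BB 10 genes are called and lie left of 0, and with PTUPB added 7 are called and lie right of 0; the PDGF-BB libraries enter both panels.

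The genes whose pattern over the 9 libraries was most like that of a receptor were named by Pearson correlation of log2(CPM + 1) among 9415 genes with a mean of at least 2 FPKM. These values are a description, since all libraries share their depth and group structure. For Ptger1 they were Ccdc80, a secreted matrix protein (r = 0.984), Col4a5, a basement membrane collagen chain (r = 0.978), and Abca3, a lipid transporter (r = 0.975). For Tbxa2r they were Col14a1, a fibril-associated collagen that is also among the fibroblast markers (r = 0.976), Gtf3c2 (r = 0.975) and Mtmr10 (r = 0.972). Ccdc80 was at 4748 CPM in PDGF-BB+PTUPB, 3057 CPM in PDGF-BB and 5100.1 CPM in Control cells, and Col14a1 at 14.2 CPM in PDGF-BB+PTUPB, 5.14 CPM in PDGF-BB and 19.7 CPM in Control cells. For Ptgfr they were Zfp386 (r = 0.985), Zfp148 (r = 0.983) and Eif3a (r = 0.983), and for Ptgir they were Rpl21 (r = 0.948), Junb (r = 0.927) and Paip2b (r = 0.911).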

How the data were processed

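Total RNA from the 9 libraries was poly(A)-selected, primed at random and sequenced paired-end, per the labels' protocols. Trimming with cutadapt 1.9.1, alignment with HISAT2 2.0.1 and counting with HTSeq 0.6.1 are named in the submitters' processing notes, which also name mm10, a mouse build, although the identifiers are rat Ensembl genes. The table deposited by the authors gives an expected count per gene and library. In it 978 genes have values that are not whole, and these were rounded. The FPKM deposited by the authors lay within 0.006 of FPKM recomputed from counts, exonic length and library totals for 100% of values. Coordinates of promoters are those of RefSeq on GRCr8, whose tables held all 7 receptors.

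Groups were taken from the sample labels. Genes with at least 1 FPKM in at least 3 of 9 libraries (11197) were fitted with edgeR 4.0.16 in R 4.3.3 (TMM scaling, group as the only term, all 9 libraries, 6 residual degrees of freedom, quasi-likelihood F test, two-sided, Benjamini-Hochberg adjustment over all tested genes, called under 0.05). The biological coefficient of variation was 0.137. Ptger3 and Ptger4 missed this filter and come from the same fit after filterByExpr (minimum count 10, 12107 genes). Alternatives were RLE scaling, library totals, DESeq2 1.42.0, limma 3.58.1 on log2(FPKM + 1) and log2(FPKM + 0.1), other filters, only 2 groups in the fit, a replicate block and each library left out. The edgeR fit was tested on simulated data.

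The receptors and gene lists were chosen with earlier results of these data known. Always named were the 7 receptors, Acta2, Myh11, Tagln, Ptgs2 and Ephx2, up to 3 called members of each list in each comparison by smallest p, and the 3 genes most like each tested receptor. Ptgfrn was chosen after its values were seen. Some results are not reported here. Intervals on counts of 0 cover counting error only.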

Additional observations from a re-analysis of the deposited data

How the results depend on the processing

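Ptger1 was called lower in PDGF-BB against Control in all 19 alternatives, with log2 fold changes of −0.89 to −0.59, and higher with PTUPB in 16 of 19 (0.49 to 0.68). Tbxa2r kept its direction in PDGF-BB against Control (−0.83 to −0.37) and its call in 11 of 19. The number of receptors called in PDGF-BB against Control was 1 with DESeq2, with no filter and with only the 2 groups compared, where it was 2 as reported, and 1 to 2 with a library left out. In PDGF-BB+PTUPB against PDGF-BB it was 0 to 1 with a library left out. Over all genes, leaving out a library gave 2770 to 3902 calls in PDGF-BB against Control (3714 as reported), 1002 to 2463 in PDGF-BB+PTUPB against PDGF-BB (2048), and also 93 to 340 in PDGF-BB+PTUPB against Control (247). The count in PDGF-BB+PTUPB against Control was 444 with DESeq2, and 1345 with Control replicate 2 and PDGF-BB replicate 3 both left out, an alternative chosen after seeing the data. In PDGF-BB against Control 1942 genes were called higher and 1772 lower, 2410 and 1350 with library totals in place of TMM, and 2427 and 1283 with limma on log2(FPKM + 1). The sign of each called receptor was the same under these scalings. The cause of these differences was not tested.

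Some estimates that were not called changed sign, and those of Ptger3 moved widely. Ptger3 in PDGF-BB+PTUPB against PDGF-BB was 0.00344 with DESeq2, 0.0540 with the replicate block, 0.00592 with RLE scaling, 0.00561 with no filter and 0.410 with Control replicate 2 and PDGF-BB replicate 3 both left out. After the count filter it was 0.0284 without PDGF-BB replicate 2 and 0.246 without PDGF-BB+PTUPB replicate 3, and Ptger3 in PDGF-BB against Control was −0.0647 without Control replicate 2. With Control replicate 2 and PDGF-BB replicate 3 both left out Ptger3 was −0.497 in PDGF-BB against Control and −0.0867 in PDGF-BB+PTUPB against Control, and Ptgfr was −0.0147 in PDGF-BB+PTUPB against PDGF-BB. With 1 library left out Ptger3 ranged over −0.152 to 0.622 in PDGF-BB against Control, −0.358 to 0.411 in PDGF-BB+PTUPB against PDGF-BB and also −0.0806 to 0.573 in PDGF-BB+PTUPB against Control. Ptgfr ranged over −0.0141 to 0.356 in PDGF-BB+PTUPB against PDGF-BB and also −0.153 to 0.0397 in PDGF-BB+PTUPB against Control. In PDGF-BB+PTUPB against Control Ptger1 ranged over −0.258 to 0.0387 and Tbxa2r over −0.240 to 0.0180. Depth limits Ptger2, Ptger3 and Ptger4, which had at most 25 counts in a library.

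The labels do not state whether the replicate numbers pair the libraries. Deviations of same-numbered libraries from their group means correlated at −0.285 to 0.194 across genes. With 3 libraries in each group these values cannot settle whether there was a pairing. With the replicate number as a block 3294 genes were called in PDGF-BB against Control, 1602 in PDGF-BB+PTUPB against PDGF-BB and also 168 in PDGF-BB+PTUPB against Control, and the receptor counts were 2, 1 and 0. Under the count filter the block gave Ptger4 an adjusted p of 0.0661 in PDGF-BB against Control, which is not a call, and it left 2 phosphodiesterases and 3 of the receptor kinases, arrestins and RGS proteins called there.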
